A study of Mus musculus with 12 samples.

Results

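The genes of the epidermal differentiation complex were described on 12 mouse arrays. They were taken by name, as the probes whose gene name on the array begins with Sprr, Lce or S100a and a digit, or is Flg, Flg2, Hrnr, Rptn, Tchh, Lor, Ivl or Crct1. This gave 57 of the 34763 gene names on the array, through 69 probes. All 57 probes used lay on chromosome 3 (mm9, chr3:90315191-93368496). The set held 14 S100 genes, 15 Sprr genes, 20 Lce genes, 5 genes of fused S100 proteins (Flg, Flg2, Hrnr, Rptn, Tchh), and Lor, Ivl and Crct1.

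Each of the 12 groups had 1 array. Total epidermal cells, interfollicular epidermis (IFE, sorted as ITGA6 high and SCA1 high) and hair follicle stem cells (HFSCs, sorted as CD34 high, ITGA6 high and SCA1 negative) came from aged (over 22 months) and young (8 weeks) wild-type C57BL/6 mice. HFSCs also came from 12-week-old Col17a1 cKO mice, whose deletion is labelled with the K14 promoter and whose strain is not given in the labels, and from 12-week-old wild-type C57BL/6 controls. Both cKO and control mice had received 2 mg tamoxifen for 5 days. HFSCs of all 4 mouse types were taken without plucking and 3 days after the hair was plucked by hand. The labels do not say whether samples came from separate animals, so p-values measure only how these arrays vary, and that variation may be technical.

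The complex is a cluster of genes that keratinocytes switch on as they leave the basal layer. Loricrin, involucrin, the small proline-rich proteins and the late cornified envelope proteins are cross-linked by transglutaminases into the cornified envelope under the membrane of the dying cell, and filaggrin bundles keratin filaments inside it. S100 proteins are small calcium-binding proteins, several of which are made well outside the cornified layer. The hair follicle has its own users of the cluster: trichohyalin hardens the inner root sheath, and S100a3 is known from the hair cuticle.

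Levels below are log2 processed intensity over the array's 75th percentile, and a gene entered a test if 2 or more arrays of the fit had it well above background. A level is not comparable between genes, because each comes from a different probe. In these bulk samples fewer cells of a type and less RNA per cell cannot be told apart. Detection differed between the families: 9 of 14 S100 genes were well above background on all 12 arrays, as were 6 of 20 Lce genes, 3 of 5 fused S100 genes, 2 of the 3 genes Lor, Ivl and Crct1, and 1 of 15 Sprr genes. Of the rest, 7 Sprr genes, 3 Lce genes and Rptn, which encodes repetin, were well above background on no array. The 1 Sprr gene measured everywhere was Sprr2a2, whose 2 other probes were well above background on 8 and 9 arrays only. Sprr2 and Lce1 genes are close copies, and cross-hybridisation between them was not tested.

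**Figure D1:**
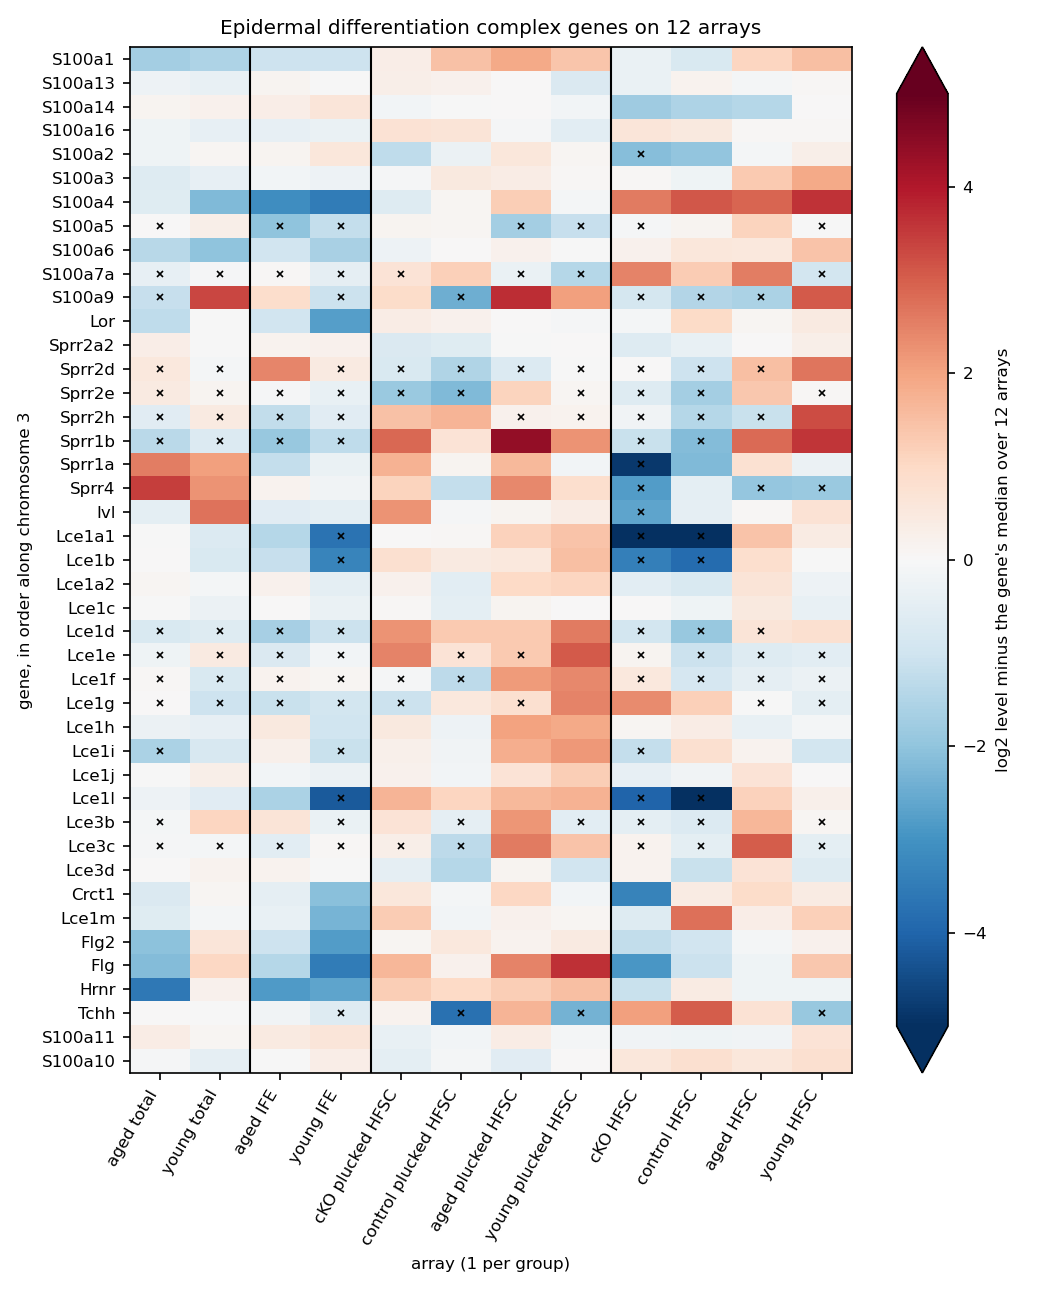
Level of each member gene that was above background by its flag on 2 or more arrays, as log2 difference from that gene's median over the 12 arrays (colour). Rows follow chromosome 3, columns are arrays, and a cross marks a value not well above background; S100a4 is high in unplucked HFSCs and low in IFE, and Lce1a1, Lce1b and Lce1l are not well above background in unplucked cKO and control HFSCs.

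The promoters of 6 members are shown for their known control elements. Of these, Sprr1b, S100a4 and Lce1a1 were called between populations below, and Lor, Flg and Lce1b passed no main test. S100a1, S100a3 and Sprr4 were also called and are not shown. They are the 250 bases before the gene start, 5′ to 3′ on the gene's strand, from RefSeq on GRCm38.p6. Capitals mark 2 motifs, searched on both strands. The TATA box was searched as TATAAA. The binding site of AP-1 was searched as TGANTCA.
Lor, chr3:92083143-92083392, minus strand: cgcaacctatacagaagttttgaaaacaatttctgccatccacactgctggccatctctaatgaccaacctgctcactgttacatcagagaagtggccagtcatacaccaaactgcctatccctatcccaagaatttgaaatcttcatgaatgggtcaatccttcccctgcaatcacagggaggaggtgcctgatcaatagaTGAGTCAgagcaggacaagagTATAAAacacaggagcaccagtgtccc
Sprr1b, chr3:92438780-92439029, minus strand: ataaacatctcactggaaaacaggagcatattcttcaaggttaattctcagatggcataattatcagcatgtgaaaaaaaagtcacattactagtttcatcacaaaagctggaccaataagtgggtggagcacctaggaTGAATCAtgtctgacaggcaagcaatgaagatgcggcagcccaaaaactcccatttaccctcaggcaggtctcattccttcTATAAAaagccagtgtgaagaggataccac
Flg, chr3:93273296-93273545, plus strand: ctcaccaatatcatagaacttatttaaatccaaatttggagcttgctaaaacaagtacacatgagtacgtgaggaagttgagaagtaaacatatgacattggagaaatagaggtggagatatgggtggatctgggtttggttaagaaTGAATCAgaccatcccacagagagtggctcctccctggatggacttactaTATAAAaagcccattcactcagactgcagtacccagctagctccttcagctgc
S100a4, chr3:90603520-90603769, plus strand: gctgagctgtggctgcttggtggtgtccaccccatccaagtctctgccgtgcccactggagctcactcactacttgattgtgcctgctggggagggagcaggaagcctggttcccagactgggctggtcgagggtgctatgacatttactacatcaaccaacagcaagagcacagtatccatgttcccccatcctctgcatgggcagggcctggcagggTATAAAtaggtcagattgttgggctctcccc
Lce1a1, chr3:92648308-92648557, minus strand: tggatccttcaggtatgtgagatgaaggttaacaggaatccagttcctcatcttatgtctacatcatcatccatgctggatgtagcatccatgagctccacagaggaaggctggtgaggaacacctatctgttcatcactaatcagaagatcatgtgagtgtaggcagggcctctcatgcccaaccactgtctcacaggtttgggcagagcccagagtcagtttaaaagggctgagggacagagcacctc
Lce1b, chr3:92656927-92657176, minus strand: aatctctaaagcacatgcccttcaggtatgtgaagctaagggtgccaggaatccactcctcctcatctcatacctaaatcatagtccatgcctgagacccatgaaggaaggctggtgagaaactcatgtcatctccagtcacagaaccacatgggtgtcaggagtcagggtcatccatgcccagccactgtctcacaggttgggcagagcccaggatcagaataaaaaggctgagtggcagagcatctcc
A promoter was found for 50 of the 57 members. TGANTCA was in the window of 16 of these 50 genes (32%), against 7.82% of 27025 genes with a promoter in the table. It was in 9 of 13 Sprr promoters, 3 of 5 fused S100 promoters and both of the Lor and Ivl promoters, and in 0 of 19 Lce promoters. TATAAA was in 21 of the 50 (42%), against 14.3% of all genes. The promoters of Lor, Sprr1b and Flg hold 1 match of each motif, that of S100a4 holds TATAAA only, and those of Lce1a1 and Lce1b hold neither. Those of S100a1 and Sprr4 also hold neither, and S100a3, with several starts, has TATAAA before 1 of them and no TGANTCA. These matches describe the letters of the window only.

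Between cell populations, more members lay lower than higher in IFE against HFSCs. Of 35 members tested in the 6 unplucked arrays of young and aged mice, 0 were higher and 4 were lower in IFE at an adjusted p under 0.05 (limma), namely Sprr1b, S100a4, S100a1 and Lce1a1. Of these, Sprr1b entered the test through the HFSC arrays only. Over all 23961 genes tested, 2.10% were higher and 2.64% were lower, 4.73% in all. The median difference over the 35 members was -0.85, against 0.09 over all genes, and 27 of the 35 were below 0. With normexp background correction and quantile scaling the members' median was -0.50, and with no filter on dim genes it was -0.61. The young IFE array had 25 of 57 members well above background, against 33 in aged IFE. In a fit of all 12 arrays, which adds the cKO, control and plucked HFSCs, S100a4 and S100a6 were called, and Sprr1b, S100a1 and Lce1a1 were not (adjusted p = 0.109, 0.0681 and 0.556). The fitted differences of these 3 were then -3.95, -2.05 and -2.16, against -4.78, -2.32 and -3.49 with 6 arrays. Those of Sprr1b are not measured sizes because it was not well above background in IFE. Those of Lce1a1 are not fully measured either. It was not well above background in young IFE, nor, in the fit of all 12 arrays, in unplucked cKO and control HFSCs. Without a filter on dim genes S100a1 and Lce1a1 also missed the threshold (adjusted p = 0.0567 and 0.0539). In this comparison each population lay in its own slide column, so population and slide column cannot be told apart.

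S100a4, a calcium-binding protein known from motile cells and fibroblasts, had the largest difference. Its level was 0.65 and 0.24 in aged and young IFE, against 6.65 and 7.34 in aged and young HFSCs. The groups lay far apart, and the difference was -6.55 ± 0.59 (SE, limma adjusted p = 0.0149), a 93.6-fold lower level in IFE. A second S100a4 probe gave -6.62. Total epidermis lay between them at 3.15 in aged and 1.55 in young mice, and was below HFSCs by -4.64 ± 0.59 (adjusted p = 0.0351). Fibroblast markers moved with S100a4: Fbln1 and Col1a2 were lower in IFE by -5.46 and -4.68. Col1a1, not well above background in IFE, was at least 2.42-fold lower. This makes 3 of the 4 tested among 8 listed markers. Of these, Col1a1 entered the test through the aged and young HFSC arrays only. The log2 of the summed fibroblast level was -0.57 and -0.09 in aged and young IFE, against 4.62 and 4.44 in aged and young HFSCs. Fbln1 made up the largest part of the sum, and the part of these markers in the S100a4 result was not tested.

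S100a1, best known as a regulator of calcium handling in muscle, had levels of 0.71 and 0.70 in aged and young IFE, against 2.80 and 3.25 in HFSCs. The difference was -2.32 ± 0.28 (limma adjusted p = 0.0263), and its second probe gave -2.37. Total epidermis was at 0.04 and 0.18, lower than HFSCs by -2.91 ± 0.28 (adjusted p = 0.0241). S100a3 was at -1.29 and -1.06 in aged and young total epidermis, against 0.66 and 1.23 in HFSCs. It was lower in total epidermis by -2.13 ± 0.31 (adjusted p = 0.0421), and missed the threshold in IFE at -1.79 (adjusted p = 0.0527). The unplucked cKO and control HFSCs, on the other slide and outside this fit, were lower than the aged and young HFSCs, with S100a1 at 1.40 and 0.99 and S100a3 at -0.60 and -0.89. S100a6, calcyclin, followed the same order without passing the test, at 7.07 and 6.40 in aged and young IFE against 8.58 and 9.46 in HFSCs (-2.28 ± 0.49, adjusted p = 0.0835). Among the other S100 genes, S100a11 ranged over all 12 arrays between 5.15 and 6.23. S100a14 was at 3.59, 3.81 and 3.94 in unplucked cKO, control and aged HFSCs, and between 5.22 and 5.94 on the other 9 arrays. S100a16 lay between 4.11 and 5.33 on its brighter probe and between 2.04 and 4.43 on its second.

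Of the Sprr genes, Sprr1b and Sprr4 went opposite ways. Sprr1b, an envelope precursor that is induced in stressed epidermis, was well above background in aged and young HFSCs, at -1.09 and -0.33, and in neither IFE (-5.79 and -5.19) nor total epidermis (-5.25 and -4.58). It entered the test through the aged and young HFSC arrays only. It was at least 7.0-fold lower in IFE (limma adjusted p = 0.00937) and at least 7.75-fold lower in total epidermis (adjusted p = 0.0195). In unplucked cKO and control HFSCs, outside this fit, Sprr1b was not well above background either. Sprr4, known from skin exposed to ultraviolet light, was at 1.11 and -0.12 in aged and young total epidermis and at -2.18 and -2.53 in IFE, and was not well above background in unplucked aged and young HFSCs. It was at least 18.4-fold higher in total epidermis than in HFSCs (adjusted p = 0.0208), the 1 member called higher there, beside 4 lower (Sprr1b, S100a1, S100a4 and S100a3). In that comparison 1.87% of all genes were higher and 2.02% lower, 3.89% in all. In the fit of all 12 arrays Sprr4, Sprr1b and S100a3 were no longer called (adjusted p = 0.079, 0.174 and 0.17) and S100a6 was, and without a filter on dim genes S100a3 and S100a4 were not (adjusted p = 0.0858 and 0.0565). T cell markers were higher on the same arrays, Cd3e by 2.85. Cd3g and Xcl1, which were not well above background in HFSCs, were at least 17.4-fold and 9.61-fold higher. Both entered the test through the total epidermis arrays only. The part of these markers in the Sprr4 result was not tested.

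**Figure D2:**
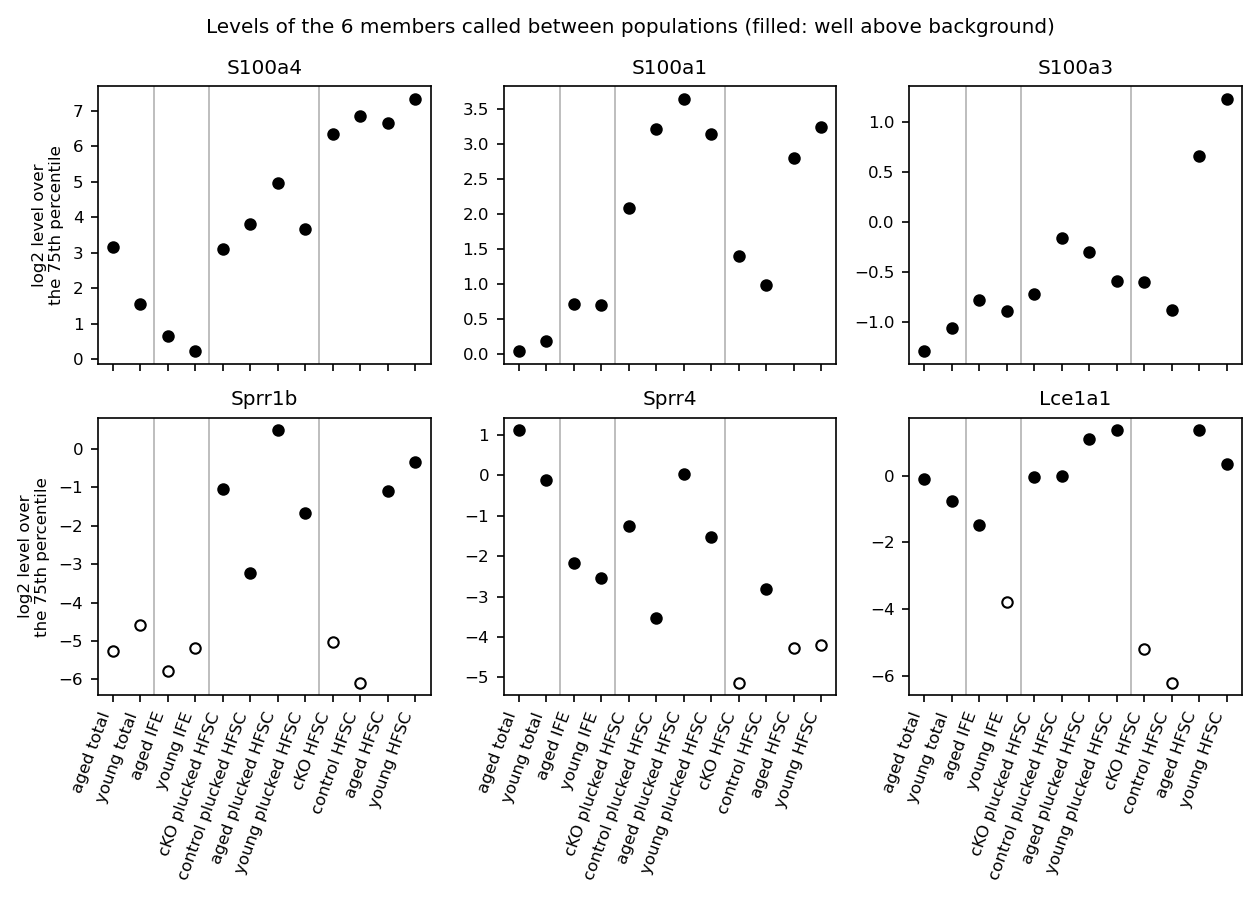
Log2 level over the array's 75th percentile of the 6 members called between populations, 1 point per array (filled, well above background; open, not). S100a4 lies between 6.33 and 7.34 in unplucked HFSCs and at 0.65 or below in IFE, and Sprr1b is open in all total epidermis and IFE arrays.

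The envelope precursors of the granular layer were measured in every population. Lor, the main envelope protein of mouse epidermis, was at 3.62 and 1.80 in aged and young IFE, against 4.67 and 5.03 in unplucked HFSCs. On all 8 HFSC arrays Lor lay between 4.47 and 5.52, and only young total epidermis (4.55) fell inside that range among the other 4 arrays. Flg was at 1.17 and -0.89 in aged and young IFE, against 2.38 and 3.93 in HFSCs. Its 3 probes differed in size for IFE minus HFSC, at -3.02, -0.54 and -4.75, all below 0. Neither Lor nor Flg passed the test. Lce1a1, a late cornified envelope protein, was called: it was at -1.49 in aged IFE and not well above background in young IFE (-3.77), against 1.36 and 0.35 in HFSCs (-3.49 ± 0.48, limma adjusted p = 0.033). Its neighbours Lce1l (-3.61, adjusted p = 0.0512) and Lce1b (-2.63, adjusted p = 0.0519) narrowly missed the threshold. Neither was well above background in young IFE, so the sizes given for Lce1a1, Lce1l and Lce1b are not fully measured.

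**Figure D3:**
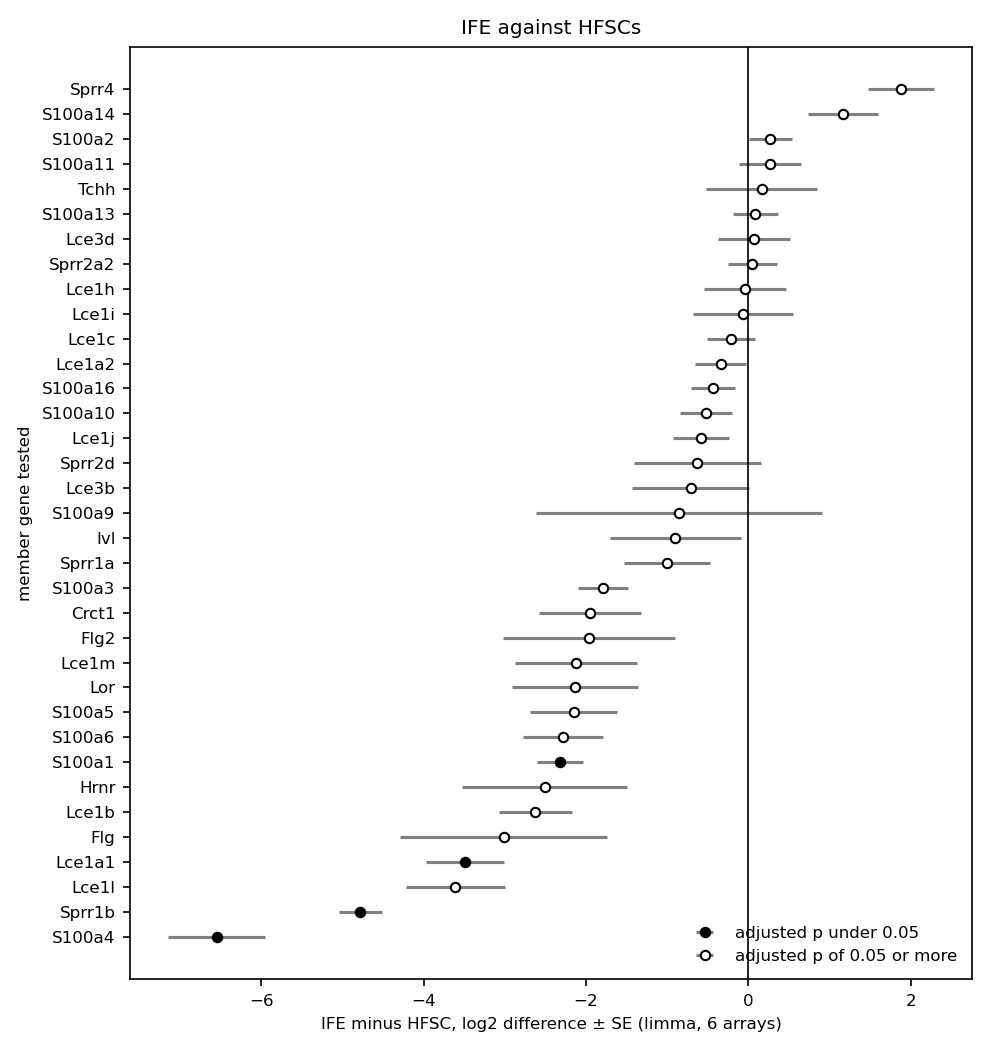
Difference between IFE and HFSCs in log2 units with its standard error for the 35 members tested (filled, adjusted p under 0.05). The points of 27 genes lie below 0, and S100a4, at -6.55, lies farthest from 0.

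Partners of these genes outside the complex were split in direction. Of 34 tested genes of the cornified envelope list, 17 were above and 17 below 0 in IFE against HFSCs (median 0.06). Krt1, the keratin of the first suprabasal cells, was higher in IFE by 2.12 (limma adjusted p = 0.0337), and Casp14, the protease that processes filaggrin, by 1.86 (adjusted p = 0.048). Tgm5, a transglutaminase that was not well above background in IFE, was at least 196-fold lower (adjusted p = 0.0159), and Calml3, a calmodulin-like protein, was lower by -5.67 (adjusted p = 0.00937). Among 13 tested wound keratinocyte genes, 5 were lower and 1 was higher in IFE. Krt6a, Tnc and Defb14 were not well above background in IFE and were at least 68.2-fold, 6.77-fold and 4.47-fold lower. Of these, Tnc entered the test through the HFSC arrays only. Krt6b and Krt17 were lower by -2.75 and -2.58, and Il1rn, the interleukin 1 receptor antagonist, was higher by 3.87. Among regulators, Klf5 (4.09), Ahr (4.07) and Zfp750 (1.79) were higher in IFE and Vdr, the vitamin D receptor, was lower (-2.96), of 29 tested. Of 11 tested S100 partners, Alcam, Emb and Anxa6 were lower, by -4.98, -3.03 and -2.50. The sort itself was visible: Cd34, the HFSC sort marker, was at -5.98 and -3.04 in aged and young IFE against 5.62 and 6.46 in HFSCs. Ly6a, which encodes SCA1, was at 0.30 in unplucked young HFSCs whereas the remaining 7 HFSC arrays had -3.69 to -1.42.

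Between total epidermis and IFE, 0 of 35 members were called (limma) and 0% of all 23961 genes, while 7 members and 977 genes had an unadjusted p under 0.05. The members with the largest differences were Sprr1a (3.08 ± 0.53, adjusted p = 0.392) and Sprr4 (2.85 ± 0.41, adjusted p = 0.291). Sprr1a, an envelope precursor, was at 2.34 and 1.83 in aged and young total epidermis, against -1.42 and -0.57 in IFE, with no overlap. Counted by single arrays at 2-fold, the ages differed: 6 of 33 members were higher and 4 lower in aged total epidermis than in aged IFE (6.37% and 6.49% of all genes), and 16 of 33 were higher and 0 lower in young mice (9.91% and 2.71%). The difference between the ages was not tested. The young IFE array had 25 of 57 members well above background, against 33, 29 and 33 in aged IFE, aged total epidermis and young total epidermis. Over all spots, 53.3% were well above background in young IFE, against 62.0%, 56.4% and 65.0% on those arrays.

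Pulling out the hair sends resting follicles into growth. Of 42 members tested over the 8 HFSC arrays, 0 passed the threshold 3 days after plucking (limma), against 0.499% of 25428 genes (0.393% higher, 0.106% lower), and 10 members had an unadjusted p under 0.05. The median difference over the members was 0.70, against -0.06 over all genes, with 26 above 0. This median moved with the processing: it was -0.05 over members well above background on all 8 arrays, 0.12 with no filter on dim genes and 0.23 with normexp background correction and quantile scaling. Within single pairs, over members well above background on the higher array, it was 1.03 in cKO, 0.07 in control, 0.10 in aged and -0.10 in young mice. At 2-fold, by single arrays and with no test, 20 of 40 members were higher and 5 lower after plucking in cKO mice (23.1% and 17.5% of all genes), and 12 of 36 and 3 in control mice (21.2% and 20.3%). In aged mice 9 of 40 were higher and 5 lower (15.7% and 16.8%), and in young mice 16 of 39 and 8 (15.1% and 11.1%). The member nearest to the threshold was S100a4. Its levels were 3.10, 3.82, 4.96 and 3.66 in plucked cKO, control, aged and young HFSCs, against 6.33, 6.86, 6.65 and 7.34 in the unplucked ones. All plucked values lay below all unplucked ones, at a difference of -2.91 ± 0.39 (adjusted p = 0.0612), and the second probe also gave -2.91. The log2 of the summed fibroblast level was 5.21, 5.38, 4.67 and 4.49 in plucked cKO, control, aged and young HFSCs, against 5.59, 5.30, 4.62 and 4.44 in unplucked ones. Fbln1 made up the largest part of this sum, and Col1a2, a collagen gene, was lower in plucked cells in 4 of 4 mouse types, at 0.71, 0.80, 0.95 and 0.81, against 2.96, 2.02, 2.78 and 3.11 in unplucked ones (-1.90 ± 0.29, adjusted p = 0.0712). None of the 5 fibroblast markers tested passed the threshold, and their part in the S100a4 values was not tested.

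Flg and Hrnr, the neighbouring genes of filaggrin and hornerin, were higher in plucked HFSCs in 4 of 4 mouse types without passing the test. Flg was at 4.26, 2.81, 5.08 and 6.25 in plucked cKO, control, aged and young HFSCs, against -0.31, 1.52, 2.38 and 3.93 in unplucked ones (2.72 ± 0.56, limma adjusted p = 0.112), and it passed the threshold in 3 of the alternatives, as did S100a4 in 4. The highest unplucked value, from young mice, lay within the plucked range. Hrnr was at 3.65, 3.42, 3.65 and 3.91 in plucked cells, in the same order, against 1.28, 2.81, 2.21 and 2.19 in unplucked cells, with no overlap (1.54 ± 0.35, adjusted p = 0.131). S100a10, the light chain of an annexin complex, was lower in plucked cells in 4 of 4 mouse types (-0.96 ± 0.23, adjusted p = 0.137).

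Lce1a1, Lce1b and Lce1l were not detected alike on the 2 slides. Lce1l was at 0.40 and -0.21 in plucked cKO and control HFSCs and was not well above background in the unplucked ones (-5.29 and -6.34). In aged and young mice it was at 0.34 and 0.46 in plucked HFSCs, against -0.12 and -1.06 in unplucked ones. Lce1a1 and Lce1b were well above background on the same arrays as Lce1l. Their levels over the 12 arrays had r of 0.972 with each other and 0.963 and 0.989 with Lce1l. These r values include arrays on which none of these genes was well above background, and the points share arrays and scaling. Lce1a2 and Lce1c, which lie between Lce1b and Lce1l on the chromosome, were well above background on all 12 arrays by their brighter probes, between 0.99 and 2.82. A second Lce1c probe was well above background on 6 arrays only, and had -0.95 and -3.11 in plucked cKO and control HFSCs, against -5.28 and -6.37 in unplucked ones. The plucking difference in cKO and control minus that in aged and young mice did not pass the test for Lce1l, Lce1a1 or Lce1b, at adjusted p of 0.737, 0.737 and 0.799 (limma, 0% of all genes called; 9 members and 1443 genes at an unadjusted p under 0.05). Its size was not measured, because the unplucked cKO and control values were not well above background. cKO and control arrays lay on one slide and aged and young ones on another, so that mouse type and slide cannot be told apart. The unplucked control and cKO arrays also had the lowest median correlation with the other arrays, 0.888 and 0.893, and the unplucked cKO array had the fewest spots well above background (49.7%).

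**Figure D4:**
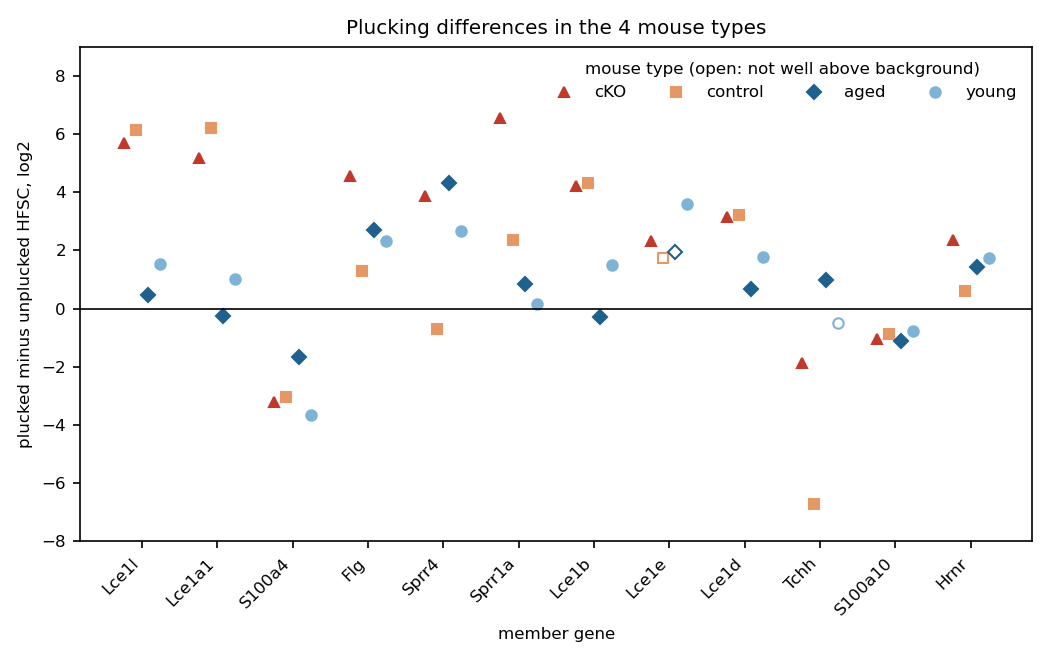
Plucked minus unplucked HFSC level (log2) in each of the 4 mouse types for the 10 members with the largest fitted difference, with S100a10 and Hrnr added; an open point marks a pair in which the higher array was not well above background. S100a4 and S100a10 are below 0 in all 4 mouse types, Lce1l, Flg, Lce1d and Hrnr are above 0 in all 4, and Lce1e is open in control and aged mice.

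On the slide they shared, the young arrays all lay in row 1 and the aged arrays all in row 2. Every difference between aged and young arrays is therefore also a difference in position on the slide. No member passed the threshold for age in HFSCs (0 of 42, limma, and 0% of 25428 genes), and 5 members and 1227 genes had an unadjusted p under 0.05. These 5 were Lce3b, Lce3d, Lce3c, S100a7a and Sprr2e, each with an adjusted p of 0.932. Lce3d was the 1 of them well above background on all 8 HFSC arrays. Sprr2e was well above background in the 2 aged HFSC arrays only and so entered the test through them, Lce3b in 2 aged and 0 young ones, and S100a7a in 1 aged and 0 young ones. Lce3d, a late cornified envelope gene of a group known from wounded and psoriatic human skin, was at -0.10 and 0.44 in plucked and unplucked aged HFSCs, against -1.19 and -0.89 in young ones (1.21 ± 0.32). Lce3c was at -2.55 and -2.14 in plucked and unplucked aged HFSCs, and in young HFSCs it was at -3.73 with plucking and not well above background without. Tchh, trichohyalin, was well above background in both aged HFSC arrays (-0.80 and -1.77) and in neither young one, at least 6.28-fold higher in aged cells (adjusted p = 0.932). In aged against young epidermis, 0 of 39 members were called (0% of 24821 genes), and 2 members and 849 genes had an unadjusted p under 0.05. By single arrays at 2-fold, 12 of 33 members were higher and 0 lower in aged than in young IFE (8.65% and 3.59% of all genes), and 2 of 33 were higher and 7 lower in aged than in young total epidermis (5.29% and 7.05%). Among these arrays young IFE had the fewest members well above background, 25 of 57. The age difference in epidermis minus that in HFSCs passed the threshold for 0% of 24821 genes (limma). Its fitted value for Tchh was -3.07 ± 0.63 (adjusted p = 0.824). That is not a measured size, because Tchh was not well above background in young IFE or in either young HFSC array.

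Col17a1 itself, the targeted gene, was at 5.79 and 7.01 in plucked and unplucked cKO HFSCs, against 6.22 and 7.31 in control ones; where its probe lies relative to the deleted part was not checked. On the slide they shared, control arrays lay in columns 1 and 2 and cKO arrays in columns 3 and 4, so genotype and slide position cannot be told apart. Between cKO and control HFSCs 0 of 42 members were called (limma, 0% of all genes), and 2 members and 1646 genes had an unadjusted p under 0.05. These members were Lce3d and Lce1e, and of these 4 arrays Lce1e was well above background only in plucked cKO HFSCs. Lce3d was at -0.69 and -0.08 in plucked and unplucked cKO HFSCs, against -1.67 and -1.37 in control ones, without overlap (1.13 ± 0.32, adjusted p = 0.692). The cKO and the age difference of Lce3d had the same sign, and across members the difference between them was called for 0 of 42 (0% of all genes; 1 member, Lce1e, and 1262 genes at an unadjusted p under 0.05).

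Control HFSCs were also set against young HFSCs, both wild type. Of 42 members, 34 were lower in controls, with a median of -0.68 against 0.02 over all genes. The members' median was -0.32 with normexp background correction and quantile scaling and -0.47 over genes well above background on all 8 arrays. None was called (0 of 42, limma; 0% of all genes), while 9 members and 2219 genes had an unadjusted p under 0.05. Flg was at 2.81 and 1.52 in plucked and unplucked control HFSCs, against 6.25 and 3.93 in young ones (-2.92 ± 0.79, adjusted p = 0.571). Slide, tamoxifen and 4 weeks of age cannot be told apart here.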

How the data were processed

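The authors deposited, per the file headers, spot intensity values of one-colour Agilent arrays made with Feature Extraction, with the background subtracted and flags for outliers and for spots well above background. Here control and outlier spots were left out, levels were log2 processed intensity over each array's 75th percentile, averaged by probe, and a gene was its probe with the highest mean level. The authors also deposited log2 values by probe, used as an alternative. These followed the same levels after centring probes on their medians (lowest r of 0.99989 over the 12 arrays); the steps behind them were not given in the sources used. The column medians were 0.13, -0.02, -0.01 and 0.08 for aged and young total epidermis and aged and young IFE, -0.15, -0.2, 0.02 and -0.14 for plucked cKO, control, aged and young HFSCs, and 0.16, -0.02, -0.01 and 0.02 for the unplucked ones.

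Additive fits used limma 3.58.1 in R 4.3.3 with the package data.table (version 1.17.8) (lmFit, eBayes, Benjamini-Hochberg over all genes tested, adjusted p under 0.05). Plucking, age, cKO and control against young came from mouse type and plucking over 8 HFSC arrays (3 residual degrees of freedom), populations from population and age over 6 arrays (2 degrees), and age in epidermis from 8 arrays (2 degrees). Other scalings, filters, probe rules, the deposited log2 values and left-out arrays were tried as alternatives. The fits were tested on simulated data. Figures used matplotlib 3.10.9 in Python 3.11.15. For the "at least" folds, a group not well above background on any array was set, per array, at the lowest signal that was, or at the probe's own where higher. The number of arrays limits the precision. Members and gene lists were chosen with earlier results of these data known. Genes past the threshold are named first, then up to 10 members with the largest difference; of other lists, up to 6 genes past the threshold. Col17a1, Cd34 and Ly6a were added as checks.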

Additional observations from a re-analysis of the deposited data

How the results depend on the processing

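Every group holds 1 array and all samples carry the same replicate number, so arrays could not be paired by animal. The plucking fit matched plucked and unplucked arrays by mouse type, and the population fit matched populations by age. The count of members called for IFE against HFSCs was 4, and became 7 with normexp and quantile scaling, 7 with the mean over all probes, 2 without a filter on dim genes and 2 with all 12 arrays in 1 fit. For total epidermis against HFSCs the count of 5 became 3 without the filter and 3 with all 12 arrays. In 2 further fits added after seeing the data, both of them the fit of all 12 arrays with some left out, the IFE count was 2 without the young HFSC array (S100a14 higher, S100a4 lower) and 7 without the unplucked control and cKO arrays, and the total epidermis count was 2 without the young HFSC array (S100a4 and S100a6 lower). These stand against the 2 and 3 of the fit of all 12 arrays. Plucking, with 0 members called, had 3 with normexp, 2 with genes well above background on all arrays, 2 with the mean over probes and 3 with all 12 arrays. S100a4 was lower after plucking in each of these 4, at adjusted p of 0.0165, 0.021, 0.0495 and 0.0122. Flg was higher in the first 3 (adjusted p = 0.043, 0.0465 and 0.041), and Lce1e and Lce1d in the fit of all 12 arrays (adjusted p = 0.0122 and 0.0343). Lce1e was well above background on 2 HFSC arrays only, those of plucked cKO and plucked young mice. It therefore entered the test through plucked arrays only. Leaving out any pair left 0 members called for plucking, and each slide alone gave 0. The other comparisons kept 0 called members under every alternative that could be tested. Leaving out the young or the aged arrays of the population fit, or a plucked or unplucked pair, left no residual degrees of freedom and so gives values only. The median over members for plucking ranged from -0.05 to 0.70. Sprr1b, S100a1 and Lce1a1 lost their call for IFE in the fit of all 12 arrays, where the unplucked control and cKO arrays join the HFSCs.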

Other observations

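Inside the chromosome 3 interval of the members lay 41 other gene names, of which 27 were tested between IFE and HFSCs. Of these 1 was higher and 0 were lower in IFE (limma), with a median of 0.10, beside -0.85 over the members. In plucked against unplucked HFSCs 0 of 29 were called, with a median of 0.10. Most of the 41 names had no RefSeq match, and the others included Crnn, Kprp, Lelp1 and Prr9, which the name rule did not take. All lie inside the interval, so they are not a comparison with genes outside the cluster.

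S100a9, a subunit of calprotectin that is abundant in neutrophils, was well above background on 6 of 12 arrays with no pattern by group: it was at -1.14 in young total epidermis, -3.61 in aged IFE, -3.55, -0.79 and -2.42 in plucked cKO, aged and young HFSCs, and -1.40 in unplucked young HFSCs. Its partner S100a8 was well above background in plucked cKO HFSCs only. Sprr3, an envelope precursor of stratified epithelia, was well above background in unplucked aged HFSCs only, at -0.98.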
